A study of Drosophila melanogaster with 24 samples.

Results

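The cytoplasmic ribosomal protein genes encode the proteins of the small and large subunits of the ribosome that translates nuclear messages in the cytosol. They were taken from a RefSeq gene table of the fly genome (build dm6) by symbol, as every gene on the 6 chromosome arms whose symbol starts with RpL or RpS followed by a digit, together with RpLP0, RpLP1 and RpLP2. This gave 91 of 17684 genes, with 38 named for the small subunit and 53 for the large subunit. By arm, 19 lay on 2L, 20 on 2R, 14 on 3L, 23 on 3R, 1 on chromosome 4 and 14 on X. All 91 are protein-coding, and none was chosen by a measured value. The symbol is not a complete guide to function: RpL24-like and RpL7-like are relatives of the yeast proteins Rlp24 and Rlp7, which act in ribosome assembly.

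Binding was measured by chromatin immunoprecipitation with sequencing (ChIP-seq) in Kc167, a Drosophila melanogaster line derived from embryos. Cells transfected with double-stranded RNA (dsRNA) against Clamp, 5 ug per culture and kept for 6 days, gave 2 CLAMP libraries with the second of 2 CLAMP antibodies and 2 input libraries. Mock cells gave 2 libraries each for CLAMP with the second antibody, CLAMP with the first antibody, CP190, Su(Hw) and Mod(mdg4)2.2, and 10 input libraries. The labels call the first CLAMP antibody clamp and the second clamp-abcam. What the mock cells received in place of the Clamp dsRNA is not given in the sources used here, and the amount of CLAMP protein left after the dsRNA is not among the values analysed. The peak lists hold no expression values, so the cell line was not checked against marker genes.

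Ribosomal protein genes are among the most strongly expressed genes of a growing cell, and their products are needed in equal amounts. In flies, loss of 1 copy of many of them gives the Minute phenotype of slow development and thin bristles. Their promoters are short, usually start within a pyrimidine-rich sequence, and are known to use the TATA-binding protein relative Trf2. CP190 is a BTB-domain zinc-finger protein of insulators that is also found at many active promoters. Su(Hw) binds DNA in the gypsy insulator, and Mod(mdg4)2.2 joins it there with CP190. CLAMP is a zinc-finger protein that binds GA-rich sequence and recruits the dosage compensation complex to the X chromosome. The series asks how far CLAMP shares sites with the 3 insulator proteins.

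On the arms, the lists held 1653 CLAMP peaks after Clamp dsRNA and 3861 in mock cells with the second antibody, 5370 CLAMP peaks with the first antibody, 9435 CP190 peaks, 3687 Su(Hw) peaks and 1732 Mod(mdg4) peaks. There is 1 list for each group. It was taken as a call on the 2 ChIP libraries of the group together, because its rows are named as pooled, and the labels do not say so outright. No value therefore has a replicate error, no test between groups was possible, and nothing in the labels says whether the libraries came from separate cultures. Intervals are 95% Wilson intervals and cover counting error only. A gene was called bound when the summit of a peak, its highest point, lay within 500 bases of either end of the gene. The fold enrichment of a peak is the authors' value for its summit, the ChIP signal divided by the background there, and it was compared only within a list. Where a gene had several summits, the strongest was used, and its percentile is its rank among all summits of that list within 500 bases of any gene end.

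CP190 lay at the ends of nearly all ribosomal protein genes, CLAMP at a minority of them, and Su(Hw) and Mod(mdg4) at almost none. CP190 was found at 84 of 91 genes (92.3%, interval 85.0 to 96.2), against 44.5% of all genes on the arms and 51.4% of protein-coding genes. CLAMP was found at none of 91 after Clamp dsRNA, where a count of 0 allows a share of up to 3.30%, against 0.56% of all genes. In mock cells it was found at 21 genes with the second antibody (23.1%, interval 15.6 to 32.7), against 10.8% of all genes. With the first antibody it was found at 26 genes (28.6%, interval 20.3 to 38.6), against 12.8%. Su(Hw) was found at 1 gene (1.10%, interval 0.194 to 5.96), against 4.68%, and Mod(mdg4) at none, with the same limit of 3.30%, against 2.99%. The interval for Su(Hw) held the share of all genes and the limit for Mod(mdg4) lay above it, so neither difference was detectable.

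**Figure D1:**
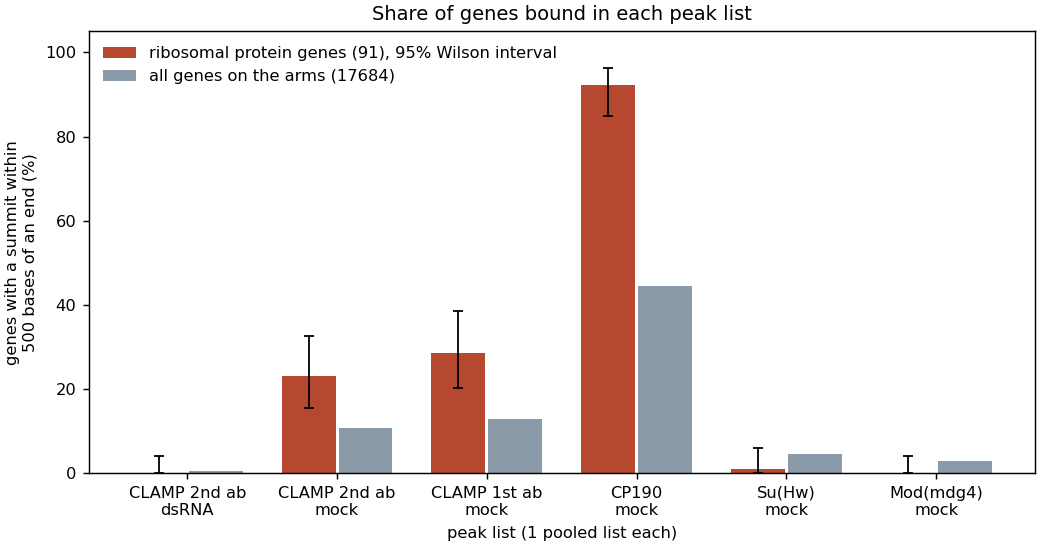
Share of genes (%, vertical axis) with a summit within 500 bases of a gene end in each of the 6 peak lists (horizontal axis), for the 91 ribosomal protein genes (red, bars with 95% Wilson intervals) and all 17684 genes on the arms (grey). CP190 stands at 92.3% of the ribosomal protein genes beside 44.5% of all genes, and the bar after Clamp dsRNA is at 0.

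Beyond the share bound, CP190 was stronger at ribosomal protein genes than at most gene ends of its list. The median fold enrichment over the 84 bound genes was 9.32, with a range of 1.92 to 19.98 and quartiles of 6.49 and 12.5, where the median over all CP190 summits near gene ends was 6.46. The median percentile was 70.7. Of the 84 genes, 64 stood above the median of the list's gene-end summits, 11 among its highest 10% and 6 among its lowest 10%. The peaks were also wide, with a median width of 1196 bases against 959 for all gene-end peaks. With the nearest summit in place of the strongest, the median was 8.94-fold.

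The largest CP190 value was at RpS9 (chr3L:9509793-9511531), with 19.98-fold enrichment at a summit at position 9511809, which lies 277 bases outside the gene and 200 bases from an end of CG33703. RpS9 is a small-subunit protein that binds early in assembly. RpS14a (chrX:7933742-7934677) had 18.7-fold enrichment, RpS27 (chr3R:25245955-25247514) 17.0-fold and RpL37A (chr2L:5070957-5072055) 16.8-fold. RpS21 (chr2L:2856070-2857029), whose loss is known to overgrow the larval blood-forming organs, had 16.7-fold enrichment, and RpL7A (chrX:6530897-6533348) had 16.4-fold. All 6 stood above percentile 95 of the list's gene-end summits. Their summits lay outside the gene, at 30 bases in RpL37A, 52 in RpL7A, 194 in RpS14a, 277 in RpS9, 386 in RpS27 and 435 in RpS21. In RpS27 the other gene within reach was bam, at 460 bases, and in RpS21 an end of CG3104 was nearer, at 143 bases.

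The subunits did not separate. CP190 was at 35 of 38 small-subunit genes (92.1%) and 49 of 53 large-subunit genes (92.5%), with median fold enrichments of 9.29 and 9.34. Genes of some roles are given here as examples, chosen after their values were seen. The 3 genes of the stalk that binds translation factors had 9.64-fold enrichment at RpLP0, 9.05-fold at RpLP1 and 12.7-fold at RpLP2. RpL5 and RpL11, which join the ribosome together with 5S RNA, had 4.48-fold and 9.34-fold. RpL40 and RpS27A are made as fusions with ubiquitin, and they were among the weakest bound genes at 2.21-fold and 2.50-fold. RpL32, a common reference gene for RNA measurements in flies under the name rp49, had 7.05-fold enrichment. RpS3, which lines the channel through which the message enters, had 14.1-fold.

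The 6 weakest of the bound genes had CP190 values between 1.92-fold and 2.50-fold. They were RpL21 at 1.92-fold, RpL10Ab at 2.09-fold, RpL40 at 2.21-fold, RpL31 at 2.44-fold, and RpS10a and RpS27A, both at 2.50-fold. Among the ribosomal protein genes, position on the arm went with low values, although of the 6 weakest RpL21 alone was centromere-proximal. Near a centromere or on chromosome 4 lay 6 ribosomal protein genes, and all 6 had CP190, where 161 of the 537 genes there did. Their fold enrichments were 1.92 at RpL21, 2.54 at RpL10, 2.69 at RpS3A, 2.93 at RpL38, 3.34 at RpL15 and 4.48 at RpL5. The median of these 6 was 2.81-fold, against 9.72-fold over the 78 bound genes elsewhere, and none passed percentile 30.6. No fold enrichment over all genes in those parts was at hand, so whether other genes there had low values too was not tested. RpS3A is the only one of the 91 genes on chromosome 4 (chr4:65225-67207), and RpL15 (chr3L:27267255-27268445) lies deepest toward the centromere of 3L among those 14.

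CP190 was not called within 500 bases of 7 ribosomal protein genes. For 3 of them a summit stood beyond that distance but within 1000 bases, at 546 bases from RpS6 with 8.92-fold enrichment, at 684 bases from RpS28b with 6.11-fold and at 802 bases from RpS15 with 14.1-fold. Inside the limit, RpS21 had its summit at 435 bases and RpL27A its nearest at 427. RpS6, which encodes the target of the growth-regulated S6 kinase, is on X (chrX:7899624-7901331). RpL39 is a neighbour of RpL12 on 2R, and the nearest CP190 summit, 1482 bases from it with 3.14-fold enrichment, was the one at the far end of RpL12. The remaining 3 had no CP190 summit near: 2849 bases from RpL37-2, 6795 from RpL10Aa and 7054 from RpL22-like. All 3 of these, and RpS28b, belong to the pairs of copies compared below. When a gene counted as bound wherever a peak interval covered an end, the CP190 count was 86.

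**Figure D2:**
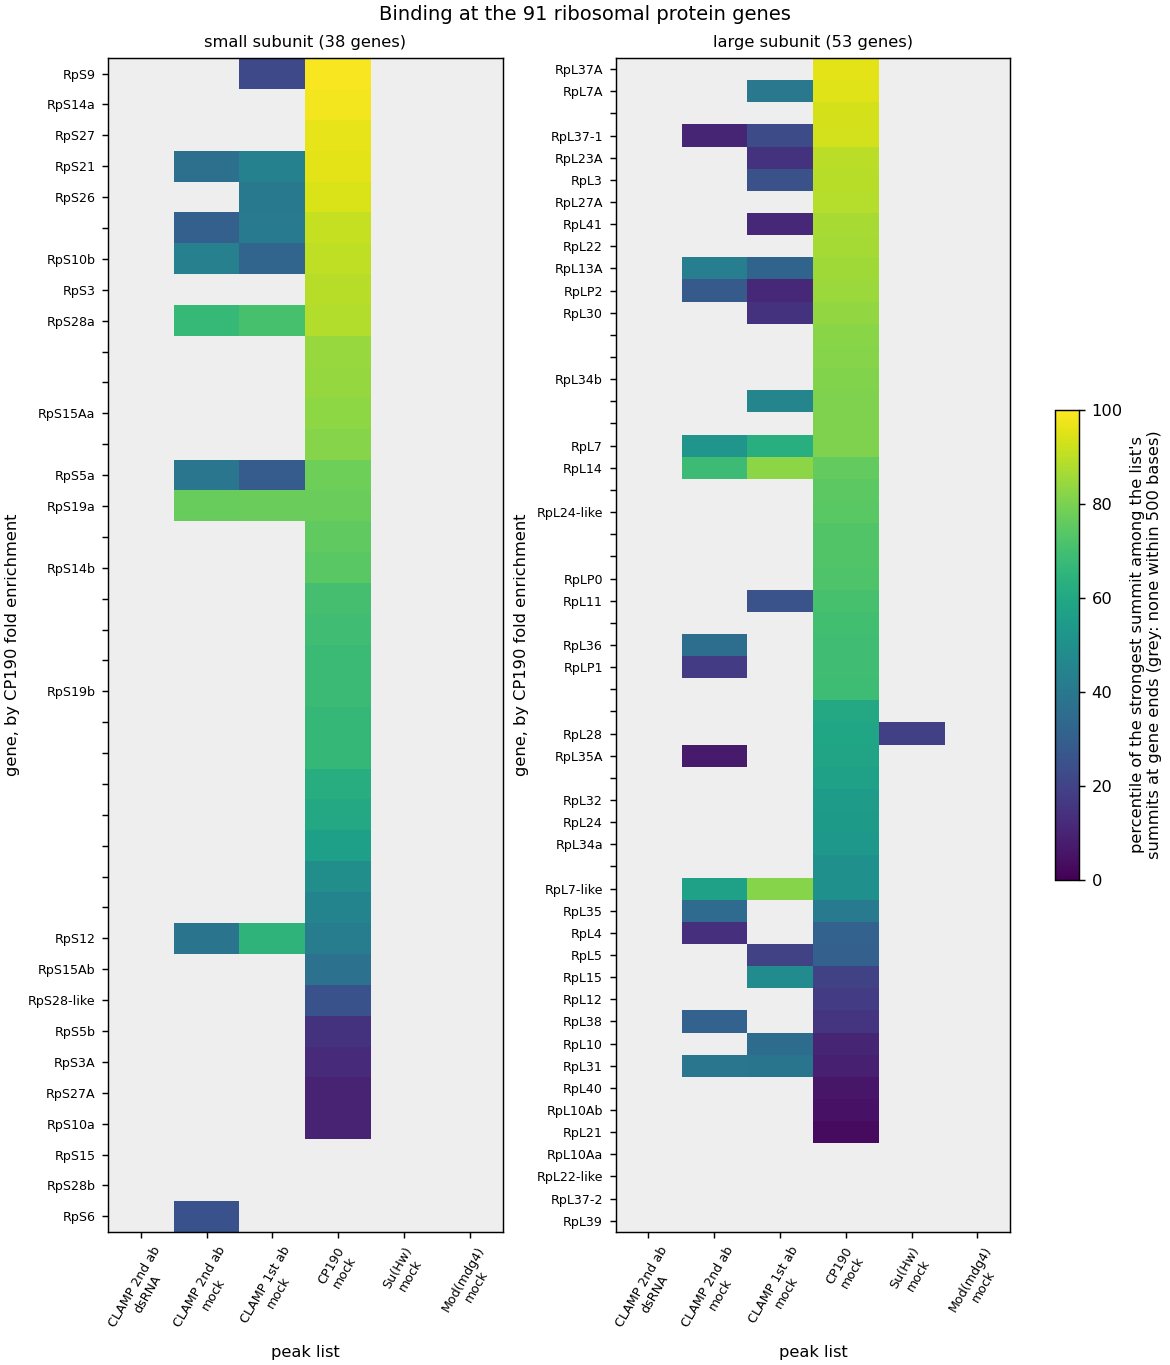
Percentile of the strongest summit among gene-end summits of the same list (colour, 0 to 100) for each of the 91 ribosomal protein genes (rows, ordered by CP190 fold enrichment) in the 6 lists (columns), with the 38 small-subunit genes on the left and the 53 large-subunit genes on the right. Rows carry a symbol where the text names the gene, grey cells have no summit within 500 bases, and CP190 fills the column in 84 rows where CLAMP is scattered and mostly in the lower percentiles.

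CP190 summits stood mostly outside the genes. The median distance was 108 bases, 40 of 84 lay within 100 bases (47.6%), and 69 lay outside the gene and 15 inside. Over all CP190 gene-end summits, each measured to its nearest gene end, the median was 68 bases and 62.1% lay within 100. The measures differ, since the strongest summit was here measured to the ribosomal protein gene itself. Many of the genes stood close to a neighbour: for 58 of the 84 genes the summit was also within 500 bases of another gene, and for 25 that other gene was nearer. For these counts, and for those outside and inside the gene, no share over all genes was at hand. RpL3 is an example, with its 14.1-fold summit 244 bases away and 11 bases from an end of another gene. Another gene's end lay within 500 bases of 78 of the 91 genes (85.7%), against 70.6% of all genes. When each summit counted only for the gene with the nearest end, 61 ribosomal protein genes had CP190 (67.0%), against 29.6% of all genes. The genes are also short, with a median length of 1318 bases against 1710 for all genes, and 28 of them hold snoRNA genes, 74 in total, which guide the modification of ribosomal RNA. The gene table gives no strand, so whether a summit stood at the start or the end of transcription was not tested.

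**Figure D3:**
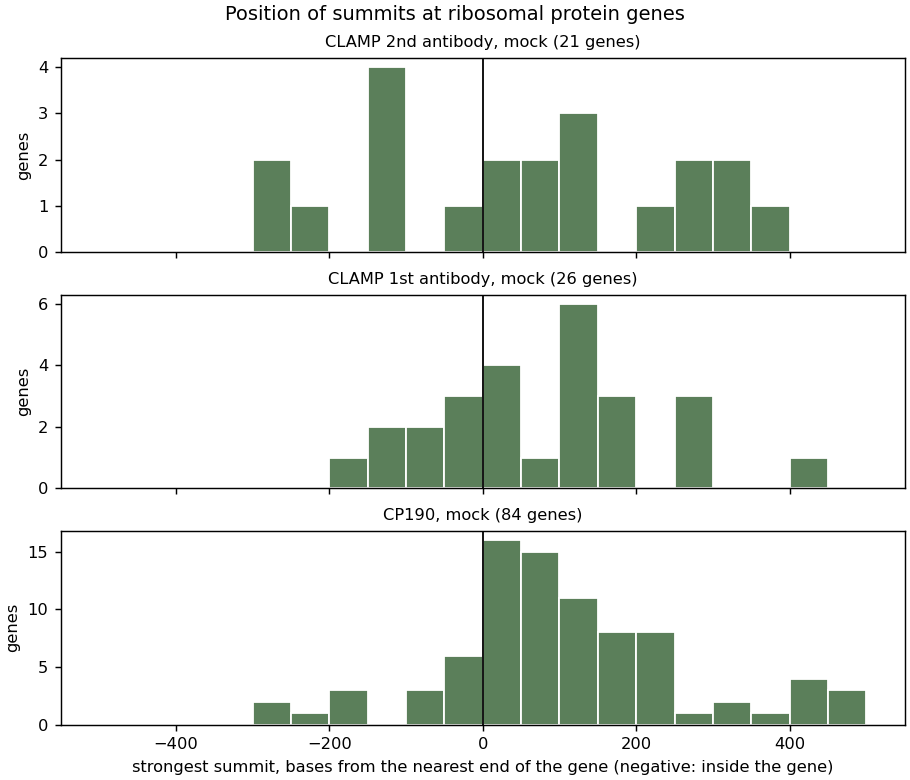
Position of the strongest summit in bases from the nearest end of the gene (horizontal axis, negative inside the gene, in 50-base bins) against the number of ribosomal protein genes (vertical axis), for CLAMP with the second antibody (21 genes), CLAMP with the first antibody (26) and CP190 (84), all in mock cells. Most CP190 summits stand outside the gene, with 69 outside and 15 inside. Most CLAMP summits do so too, with 13 outside and 8 inside for the second antibody and 18 and 8 for the first.

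CLAMP at ribosomal protein genes in mock cells was more frequent than at all genes but weak. The median fold enrichment was 2.68 with the second antibody (range 1.94 to 7.35) and 2.58 with the first (2.01 to 6.85), below the medians of 3.40 and 3.01 over all gene-end summits of those lists. The median percentiles were 36.9 and 37.0, only 5 of 21 and 6 of 26 genes stood above the list's median, and none stood among the highest 10%. The excess over all genes was not present among the stronger peaks. With the 50% of each list that had the largest -log10 q, 4 genes remained bound with the second antibody (4.40%, against 4.95% of all genes) and 6 with the first (6.59%, against 6.73%), which are shares near the background.

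With the second antibody the strongest was RpS19a (chrX:16637894-16639249), a small-subunit gene, at 7.35-fold with the summit inside the gene, 278 bases from its end. With the first antibody it had 5.70-fold enrichment, 193 bases inside. No other gene end lay within 500 bases of either summit. RpL14 (chr3L:8601006-8602392) had 5.55-fold enrichment with the second antibody and 6.85-fold with the first, the largest of that list at these genes. Both summits lay within 21 bases outside the gene, beside Nelf-E, which encodes a subunit of the factor that pauses RNA polymerase II. RpS28a (chr3R:30022345-30022648) had 5.32-fold and 4.68-fold enrichment at summits 361 and 280 bases outside the gene, both nearer to Mgat2. RpL7-like (chr2L:12056326-12058251) had 4.06-fold and 6.62-fold at summits that stood 27 and 3 bases from an end of JhI-21 and 257 and 287 bases from its own. Thus 2 of these 4 genes share their CLAMP summit with a neighbour that is nearer. RpL7 had 3.59-fold and 3.80-fold, inside the gene. RpS10b completed the 6 strongest of the second antibody at 2.95-fold and RpS12, known from cell competition with Minute cells, those of the first at 4.06-fold. Over all bound genes the summit was shared with another gene in 13 of 21 and 15 of 26 cases, and another gene was nearer in 3 and 5.

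Both CLAMP antibodies found 14 of the genes (15.4%, interval 9.39 to 24.2), against 7.72% of all genes. Among them were RpL7, RpL7-like, RpL13A, RpL14, RpL31, RpL37-1, RpLP2, RpS5a, RpS10b, RpS12, RpS19a, RpS21 and RpS28a. The first antibody alone found 12, among them RpL3, RpL5, RpL7A, RpL10, RpL11, RpL15, RpL23A, RpL30, RpL41, RpS9 and RpS26. The second alone found 7, namely RpL4, RpL35, RpL35A, RpL36, RpL38, RpLP1 and RpS6. The 12 with the first antibody alone had values of 2.01-fold to 2.92-fold and the 7 with the second alone 1.94-fold to 2.66-fold, so every gene above 3-fold with either antibody was found by both. As a share of each list, 66.7% of the genes with the second antibody had the first and 53.8% of those with the first had the second, against 71.4% and 60.4% over all genes. Over the 14 genes, the fold enrichments of the antibodies correlated with a Pearson r of 0.844 on the log2 scale and a Spearman rho of 0.741, and both lists come from the same line and share the gene's position on the arm. Their summits stood a median of 58 bases apart (7 to 350), with 12 of 14 within 100 bases, against a median of 56 over all genes with both.

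With CP190 at 84 of the 91 genes, most genes with CLAMP had CP190 too. CP190 and either CLAMP antibody were together at 32 genes (35.2%, interval 26.1 to 45.4), against 12.1% of all genes, and CP190 with neither CLAMP antibody at 52 (57.1%, interval 46.9 to 66.8), against 32.3%. None of the 5 mock lists had a summit at 6 genes (6.59%), against 51.2% of all genes. RpS6 was the only gene with CLAMP and no CP190, with 2.35-fold enrichment by the second antibody at a summit nearer to bys, a ribosome assembly gene. Since CP190 is at nearly all of these genes, CLAMP was also counted among CP190-bound genes alone. The first antibody was then at 26 of 84 ribosomal protein genes (31.0%, interval 22.1 to 41.5) against 21.8% of 7863 CP190-bound genes, and the second at 20 of 84 (23.8%, interval 16.0 to 33.9) against 18.8%. The first of these intervals lay just above the share of all CP190-bound genes and the second held it. The median CP190 value was 12.1-fold at the 14 genes with both antibodies, 12.9-fold at the 12 with the first alone, 6.48-fold at the 6 CP190-bound genes with the second alone and 8.94-fold at the 52 without CLAMP. These ranges overlapped widely: the genes without CLAMP ran from 1.92-fold to 18.7-fold.

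By their medians, CLAMP summits of the first antibody stood nearer to CP190 summits at these genes than at all genes with both, and those of the second at about the same distance as elsewhere. With the first antibody the median distance was 44.5 bases (3 to 690), and 19 of 26 pairs lay within 100 bases, against a median of 116 bases and 46.3% within 100 bases over 1714 genes with both. With the second antibody the median was 130.5 bases (13 to 771), and 8 of 20 lay within 100 bases, against 143.5 bases and 39.5%. Each distance ran from the strongest CLAMP summit to the nearest CP190 summit at either end of the gene. It could be large where the proteins stood at opposite ends of a long gene, and the longest ribosomal protein gene has 4677 bases. The comparison was not matched for gene length, and the part of length was not tested. At RpL14 the summits of CP190 and of both CLAMP antibodies all fell between positions 8600946 and 8600993 of 3L. At RpS21 the CLAMP summits lay at positions 2856003 and 2856067 of 2L, beside the gene, and the CP190 summit at 2855636, beside CG3104.

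CLAMP is known for its role on X, where 14 of the genes lie. Dosage compensation was not measured in these cells, so the counts on X say nothing about it. With the second antibody CLAMP was at 7 of 14 on X (50%, interval 26.8 to 73.2), against 16.7% of all X genes, and at 14 of 77 on the autosomes (18.2%, interval 11.2 to 28.2), against 9.76% of all autosomal genes. With the first antibody it was at 5 of 14 on X (35.7%, interval 16.3 to 61.2), against 17.6%, and at 21 of 77 on the autosomes (27.3%, interval 18.6 to 38.1), against 11.9%. With the second antibody the intervals of X and autosomes shared only the stretch from 26.8 to 28.2, and with the first the autosomal interval lay within that of X. The difference between X and autosomes was not tested. CP190 was at 12 of 14 genes on X (85.7%) and 72 of 77 on the autosomes (93.5%), against 48.8% and 43.7% of all genes there, with a median of 12.7-fold on X and 9.03-fold on the autosomes. In the centromere-proximal parts, CLAMP had summits at RpL38 with the second antibody (2.48-fold) and at RpL5, RpL10 and RpL15 with the first (2.17-fold, 2.53-fold and 2.92-fold).

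After Clamp dsRNA, none of the 21 ribosomal protein genes with CLAMP in mock cells kept a peak, and no other gained one. The nearest summits of the dsRNA list were 8817 bases from RpL7-like and 11970 bases from RpS15Ab. None of the 91 genes had one within 5000 bases, 8 had one within 50000 bases, and the median distance was 261358 bases. For these distances no values over all genes were at hand, so they are not read as particular to these genes. Few genes of any kind had a dsRNA summit near, with 0.854% of all genes having one within 1000 bases. The dsRNA list itself lay mostly elsewhere, with 1202 of its 1653 peaks in the parts near the centromeres. The same share for the mock list was not at hand. The loss was the common outcome across the genome: 94 of 3861 mock peaks overlapped a dsRNA peak (2.43%), and the kept ones were strong, with a median mock value of 14.1-fold. Of the 2999 mock peaks no stronger than that of RpS19a, 29 were kept (0.967%), and of the 862 stronger ones, 65 (7.54%). Among the 1086 peaks near gene ends and no stronger than that of RpS19a, 2 were kept (0.184%). A count of 0 in 21 allows a share of up to 14.3%, so a difference of the ribosomal protein genes from other CLAMP peaks was not detectable. The numbers of reads behind the 2 lists are unknown, and their part in the lower number of peaks was not tested.

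**Figure D4:**
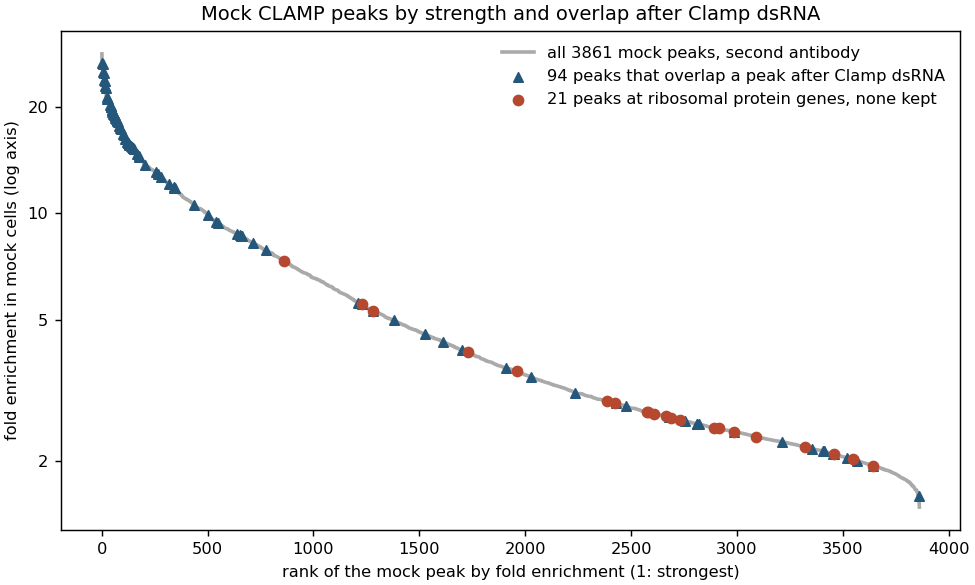
Fold enrichment (vertical log axis) against rank (horizontal axis, 1 is the strongest) for the 3861 mock CLAMP peaks of the second antibody, with triangles for the 94 that overlap a peak after Clamp dsRNA and circles for the 21 at ribosomal protein genes. The circles begin at 7.35-fold, below most of the triangles, and none of them overlaps a dsRNA peak.

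Su(Hw) reached 1 ribosomal protein gene, RpL28 (chr3L:3220911-3222960), with 4.23-fold enrichment at percentile 18.8 of its list, 208 bases inside the gene and nearer to nSMase at 194 bases. RpL28 also had CP190, at 7.58-fold. The next summits stood just outside the distance that counted, at 502 bases from RpL37-1 with 6.62-fold enrichment and at 521 bases from RpS21 with 28.4-fold. RpS15Aa followed at 701 bases with 10.1-fold and RpLP0 at 934 bases with 17.7-fold. Mod(mdg4) came nearest at RpS21, 517 bases away with 8.93-fold enrichment, RpS15Aa, 654 bases away with 4.40-fold, and RpLP0, 899 bases away with 5.22-fold. RpS21, RpS15Aa and RpLP0 thus had both proteins within 1000 bases and neither within 500. Within 1000 bases the counts were 5 genes for Su(Hw) (5.49%, against 7.84% of all genes) and 3 for Mod(mdg4) (3.30%, against 4.70%).

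Several ribosomal proteins are encoded by more than 1 gene, and 13 pairs of copies, made from 25 genes, were compared for CP190. The pairs RpL7 with RpL7-like and RpL24 with RpL24-like each set a ribosomal protein gene beside a relative of an assembly protein. The counts over the pairs include them. CP190 was at both copies of 8 pairs and at 1 copy of the other 5. The genes RpS5b, RpS10a, RpS19b and RpL22-like, known for expression in the germline, are given first; these 4 were picked after their values were seen, and whether other copies share that trait was not examined. RpS5b had 2.87-fold enrichment, against 10.9-fold at RpS5a, and RpS10a had 2.50-fold, against 14.4-fold at RpS10b. RpS19b had 8.86-fold, against 10.7-fold at RpS19a, and RpL22-like had no CP190, against 13.1-fold at RpL22. Those 4 partners lie on X and these 4 copies on autosomes. CLAMP with both antibodies was at RpS5a, RpS10b and RpS19a and within 500 bases of none of RpS5b, RpS10a and RpS19b, although a summit of the second antibody stood 559 bases from RpS19b. Neither RpL22 nor RpL22-like had CLAMP.

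The other pairs were RpS14a with 18.7-fold enrichment and RpS14b with 10.0-fold, a tandem pair on X, RpS15Aa with 12.2-fold and RpS15Ab with 5.12-fold, RpL7 with 11.5-fold and RpL7-like with 6.49-fold, and RpL34b with 11.6-fold and RpL34a with 6.84-fold. RpL37-1 on X had 15.6-fold enrichment and CLAMP with both antibodies, and RpL37-2 on 2R had neither. RpL10Ab had 2.09-fold and RpL10Aa none. RpL24 had 7.01-fold and RpL24-like 9.99-fold. RpS28b, whose nearest CP190 summit stood 684 bases away, had none, against 13.9-fold at RpS28a and 3.89-fold at RpS28-like. Across the 25 genes of these pairs CP190 was at 21 (84.0%), and across the 66 other ribosomal protein genes at 63 (95.5%). How the authors' alignment treated reads that match 2 copies is not given in the sources used here, and its part in these values was not tested.

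**Figure D5:**
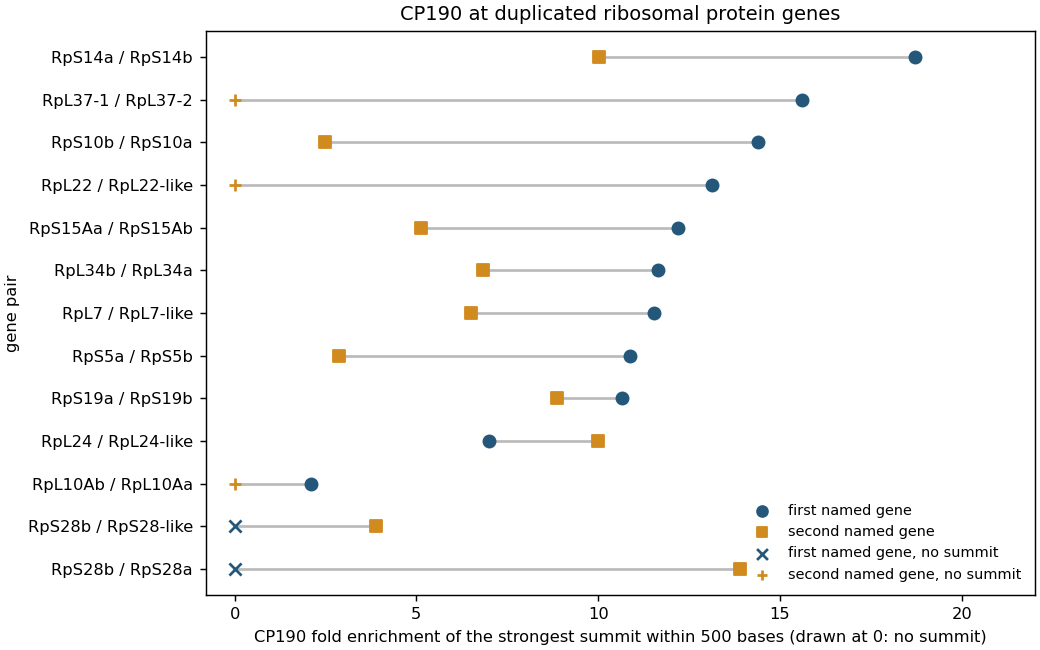
CP190 fold enrichment of the strongest summit within 500 bases (horizontal axis) for 13 pairs of duplicated or related genes (rows). Circles stand for the first named gene and squares for the second, and crosses at 0 mark genes with no summit. RpL7-like and RpL24-like are relatives of assembly proteins. RpS14a has the largest value at 18.7-fold, and 8 pairs have a summit at both genes. In these 8 pairs the first named gene had the larger value in 7 and the second in 1. No rule for the order within a pair is given, so this is not read as a result.

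Other genes of protein synthesis were set beside the ribosomal protein genes for scale. The 73 mitochondrial ribosomal protein genes, whose products translate the messages of the mitochondrial genome, had CP190 at 68 (93.2%, interval 84.9 to 97.0), nearly the share of the cytoplasmic set. CLAMP in mock cells was at 9 of them with the second antibody (12.3%, interval 6.62 to 21.8) and at 7 with the first (9.59%, interval 4.72 to 18.5), which is near the shares of all genes. After Clamp dsRNA CLAMP was at 1 of the 73, and neither Su(Hw) nor Mod(mdg4) was at any. Of 36 translation factor genes, CP190 was at 31 (86.1%), CLAMP with the second antibody at 9 (25.0%) and with the first at 10 (27.8%). Both antibodies found 8 of them. The strongest were eIF4E1, which binds the cap of the message, with 12.1-fold by the second antibody and 11.5-fold by the first, and eRF1, which reads stop codons, with 12.9-fold and 8.57-fold. The others were eIF4H1, eIF1A, eEF2, eEF1beta, eIF3c and eIF3d1, with values between 2.02-fold and 3.93-fold. Only eEF1beta among the 36 had Su(Hw) and Mod(mdg4), at 5.08-fold and 3.96-fold.

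Of 33 genes for ribosome biogenesis, CP190 was at 27 (81.8%), CLAMP with the second antibody at 8 (24.2%) and with the first at 6 (18.2%). Both antibodies found Nop56, a core protein of the snoRNPs that methylate ribosomal RNA, with 6.34-fold by the second and 6.95-fold by the first, and Non1 with 3.95-fold and 2.86-fold. They also found the RNA polymerase I subunit gene Polr1B with 4.48-fold and 2.19-fold, Polr1D with 2.62-fold and 2.70-fold, and CG8939 with 4.23-fold and 2.02-fold. Non1, Polr1B and Polr1D had no CP190. The ribosome-associated gene sta, on X, had CP190 with 10.9-fold enrichment and CLAMP with 3.49-fold and 3.11-fold. Among 12 genes for factors tied to ribosomal protein promoters or growth, CP190 was at 8 (66.7%). Both CLAMP antibodies found Clamp itself, with 17.7-fold and 11.5-fold, and psq, with 13.8-fold and 2.60-fold. After Clamp dsRNA, CLAMP was at no gene of these 3 lists or of the 36 translation factors.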

How the data were processed

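ChIP-seq was done on 12 immunoprecipitated and 12 input libraries of Kc167 cells. The submitters' processing notes name MACS2 2.1.0.20150731, Bowtie2 2.2.9, cutadapt 1.8.1, Picard and SAMtools 1.2, and build dm6. How each was set, and which threshold peaks had to pass, is not given in the sources used here. Peak lists were deposited by the authors for each combination of antibody and treatment, 6 in all, and their row names carry the word pooled. The deposited fold enrichment is a ratio of ChIP to background. The deposited -log10 q was used to rank peaks, and the deposited score, which follows it, was not used. The authors give each summit by its offset within the peak. Depth is unknown, since no read numbers were at hand, and a missing peak means only that none passed the authors' threshold. All columns used belong to a group, with 0 left over.

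Genes came from RefSeq (assembly Release 6 plus ISO1 MT, which is dm6), as a table with positions but no strand, exons or sequence. Distances were measured from summits to either gene end, on the 6 arms, with Python 3.11.15, pandas 2.3.3, NumPy 2.4.6, SciPy 1.17.1 and Matplotlib 3.10.9, after the counting was checked on simulated data. Summit positions are printed 1-based. Distances to gene ends were taken from the deposited peak start plus offset, without adding 1. Each therefore differs by 1 base from the distance between the printed positions. Centromere-proximal means X and 2L beyond 22 Mb, 2R before 6 Mb, 3L beyond 23 Mb, 3R before 4.5 Mb and all of chromosome 4. The planned motif search was not run. No test was made, because each group has 1 list.

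The genes reported, the pathway lists and alternatives were chosen with earlier results of these data known. Apart from a few genes that are not reported here by name, the text names those with CLAMP, Su(Hw) or Mod(mdg4), those without CP190, the 6 with the largest and smallest CP190 values, the copies that differ, the centromere-proximal genes and the listed genes with both CLAMP antibodies. The order of the RpL37 pair was set after the gene table was read.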

Additional observations from a re-analysis of the deposited data

How the results depend on the processing

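Of 59 recounts under other settings, 46 stayed within 1.5 times the reported count (for a median fold, within its spread) and 13 moved. Some of the 46 could not move. All 91 genes are protein-coding, so protein-coding genes as the background leave each of their counts as it was. A count of 0 also cannot change where a setting is stricter or drops genes. With the 50% of peaks that had the largest -log10 q, the second CLAMP antibody was at 4 genes, the first at 6 and Su(Hw) at 0. With the 1000 peaks that had the largest -log10 q, these counts were 1, 2 and 0, and CP190 was at 18 genes (19.8%, against 5.52% of all genes). The cause was not tested beyond the smaller number of peaks used. With summits within 200 bases, the second CLAMP antibody was at 12 genes (13.2%, against 4.84%), CP190 with either CLAMP antibody at 20 and Su(Hw) at 0. With summits within 1000 bases, Su(Hw) was at 5 genes and Mod(mdg4) at 3. With each summit given only to the gene with the nearest end, Su(Hw) was at 0. CP190 stayed above the share of all genes in every setting run, with 61 to 87 of 91 genes in those that kept all 91 and more than the 1000 best peaks. The count after Clamp dsRNA was 0 in all of them, but only summits within 1000 bases and peak intervals over a gene end could have raised it. Protein-coding genes as the background, chosen after seeing the data, gave 51.4% for CP190, 11.8% and 13.8% for the second and first CLAMP antibodies.

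Leaving out single libraries was not run, because there is 1 list per group, and gene starts alone and promoter motifs were not run for want of strand and sequence. No paired analysis was possible because there is 1 list per group and no result comes from a test. Unknown depth limits every absent peak.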
